A study of Mus musculus with 11 samples.

Results

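The granule exocytosis machinery comprised 45 genes, chosen by name for their roles as SNARE proteins and as priming, tethering and calcium-sensing factors, out of 19329 gene IDs measured in mouse islets. Bulk RNA sequencing covered whole islets of male mice aged 14 weeks, namely 6 libraries of wild-type mice and 5 of mice carrying a point mutation of *Pdx1* on both alleles (PDX1P33T). PDX1 is the homeodomain transcription factor of pancreas development and of adult beta cells, and the mutation, made by CRISPR-Cas9 in one-cell C57BL/6N embryos, exchanges a proline for a threonine in its transactivation domain. Both genotypes were fed chow, received no agent, and had their islets cultured in medium after isolation. Per the figure legend several mice were collected for a replicate, so a library may be a pool, and n and SD refer to libraries. Every cell of a PDX1P33T mouse carries the change, and FPKM per gene do not show the edited base, so the genotype labels were not checked here.

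Values are FPKM, the fragments counted on a gene per kilobase of its annotated length, scaled to a fixed library size. All 45 members had values in the 5 PDX1P33T libraries. Most wild-type values, however, stand on the rows of other genes in the deposited table. They were used only where the row could be identified, by the wild-type reads of the supplementary gene list held here (8 members) or by gene length together with level (15 members). Of the 45 members, 23 were therefore compared between genotypes. Another 4 (*Vamp2*, *Rab3d*, *Syt11* and *Sytl5*) were placed by a narrower length rule added later, and their wild-type values are given as a description. The remaining 18 were described in PDX1P33T islets only. The length rule needs group means within 4-fold of each other and so cannot show a larger difference. The list that gave the reads was ordered by the study's own genotype comparison, so the members it holds were selected towards small p-values. The members placed by length were those not found by these reads, and so were selected towards larger p-values.

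Insulin is stored in dense-core granules that dock at the plasma membrane and fuse with it when calcium enters the beta cell. Fusion is driven by a SNARE bundle, formed by a syntaxin and a SNAP-25 family protein on the plasma membrane and a VAMP on the granule. Munc18 proteins hold the syntaxin, Munc13 and CAPS prime the granule, synaptotagmins and Doc2b sense calcium, complexins control the assembled bundle, Rab3 and Rab27 with their effectors bring the granule to the membrane, and NSF with alpha-SNAP takes the spent bundle apart.

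The libraries held 19311937 to 37094286 counted reads. The islet markers were high in both genotypes, with *Ins2* at 113559 to 162510 FPKM in wild-type and 135342 to 177811 FPKM in PDX1P33T libraries. Whole islets also hold alpha, delta and PP cells, vessels, nerve and immune cells, and in such bulk RNA fewer cells of a type and less RNA per cell cannot be told apart. PDX1P33T replicate 2 stood apart from the other 4. The summed FPKM of the 15 acinar genes in the table, 1 of them at 0 in every PDX1P33T library, was 147 in it against 12.8 to 26.8, and that of 8 endothelial genes was 74.1 against 117 to 162. In wild-type replicate 3 the 6 endothelial genes placed summed to 218 FPKM against 44.2 to 92.1 in the other 5, and the 6 immune genes placed to 430 FPKM against 120 to 198. The 2 delta cell genes placed, *Sst* and *Ghsr*, summed to 10590 FPKM in it against 4311 to 7481. Nearly all of this was *Sst*, since *Ghsr* was at most 1.30 FPKM in wild-type libraries. The 2 PP cell genes placed, *Ppy* and *Pyy*, summed to 24082 FPKM against 9998 to 15078. Results are therefore also given without these libraries. The closest pairs, PDX1P33T replicates 3 and 5 and wild-type replicates 4 and 5, differed by a median chi-square of 1.35 and 1.95 per gene, above the 0.455 that counting alone gives. They were counted as separate libraries, as labelled, and this does not show that they come from separate RNA pools.

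In PDX1P33T islets the members spanned a wide range of levels. *Syt13* (304 ± 16.1 FPKM, SD, n = 5) and *Cplx2* (125 ± 15.4 FPKM) were above 100 FPKM, 18 members lay between 10 and 100 FPKM, 13 between 1 and 10 FPKM, and 12 below 1 FPKM. *Rims1* was the lowest at 0.0219 ± 0.0154 FPKM, from 1 to 10 reads per library. FPKM divide by the length of all annotated exons, and genes with long rarely used exons read low on this scale. For *Snap25* that length was 6791 bases against 2116 bases for its principal transcript in GENCODE vM21. Levels within a family are therefore also given on the principal transcript's length where that changes which member leads or moves a ratio printed here by over 1.5 times. That scale assigns all reads of a gene to this transcript, so it reads high where reads fall on other exons. For *Syt7* the principal transcript has 1344 bases against 7487 annotated exon bases, and for *Vamp8* 820 against 2311.

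**Figure D1:**
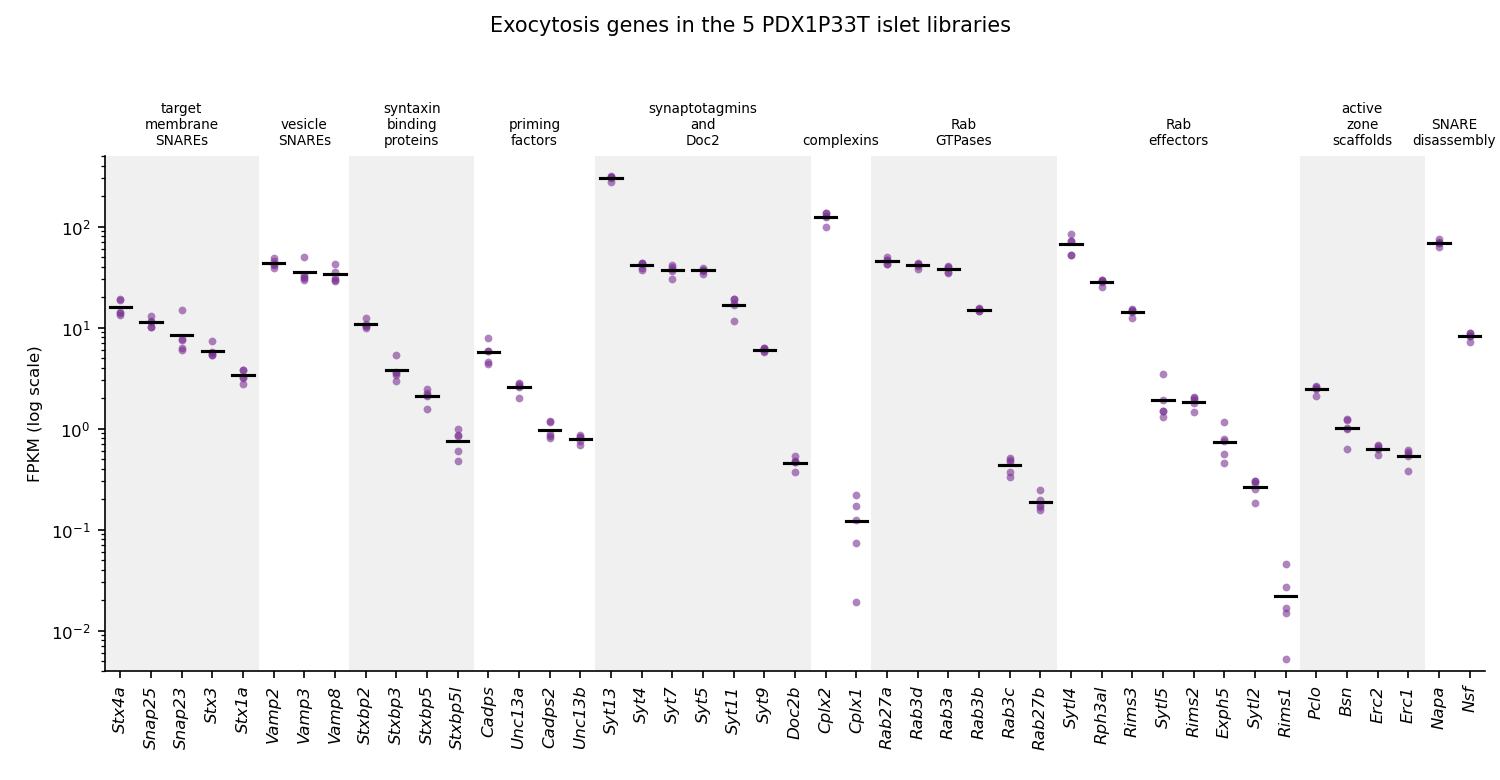
FPKM (log scale) of the 45 exocytosis genes in the 5 PDX1P33T libraries, grouped by role; points are libraries and black lines their means. *Syt13* is highest at a mean of 304 FPKM and *Rims1* lowest at 0.0219 FPKM. *Cplx2*, *Rab27a* and *Sytl4* stand far above the other members of their families.

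Among the target membrane SNAREs *Stx4a*, a plasma membrane syntaxin, had the highest FPKM at 15.9 ± 2.87 (SD, n = 5), ahead of *Snap25* at 11.3 ± 1.24, *Snap23* at 8.45 ± 3.68, *Stx3* at 5.86 ± 0.870 and *Stx1a*, the syntaxin of the neuronal SNARE bundle, at 3.37 ± 0.466. On the length of the principal transcript the first places were exchanged, with *Snap25* at 36.2 ± 3.97 and *Stx4a* at 25.8 ± 4.65. In FPKM *Stx4a* took 62.9% ± 4.96 of the summed FPKM of the 3 member syntaxins and lay above *Stx3* in 5 of 5 libraries. *Stx3* in turn lay above *Stx1a* in 5 of 5 PDX1P33T libraries and in 5 of 6 wild-type libraries, by a ratio of 1.74 between the PDX1P33T means in FPKM and 2.87 on the principal length. *Snap25* and its broadly expressed relative *Snap23* were nearer to each other, with *Snap25* at 58.4% ± 6.63 of their sum. *Snap25* was above *Snap23* in 6 of 6 wild-type libraries and in 4 of 5 PDX1P33T libraries, the exception being replicate 2. On the principal length it was above in 5 of 5, with 73.9% ± 5.53 of the sum. The vesicle SNAREs *Vamp2* (43.4 ± 3.79 FPKM), *Vamp3* (35.1 ± 8.28 FPKM) and *Vamp8* (33.6 ± 5.62 FPKM) overlapped from one to the next. On the length of the principal transcript *Vamp8* led this family, 1.26 times above *Vamp2*.

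Of the 2 member Munc18 genes, *Stxbp2* (10.8 ± 0.971 FPKM) was above *Stxbp3* (3.77 ± 0.897 FPKM) in 5 of 5 libraries, 2.87 times by mean FPKM and 1.86 times on the principal length. The tomosyns, which compete with VAMP for the target SNAREs, were lower. *Stxbp5* was at 2.10 ± 0.329 FPKM and *Stxbp5l* at 0.756 ± 0.211 FPKM, a ratio of 2.78 that ran from 1.57 to 4.50 over the 5 libraries and whose value on the principal length was 5.04. The Munc13 gene *Unc13a* (2.57 ± 0.316 FPKM) was above *Unc13b* (0.789 ± 0.0720 FPKM) in 5 of 5 libraries and took 76.4% ± 1.65 of their sum in FPKM. On the principal length this was 52.7% ± 2.30, at a ratio of 1.12 with overlapping ranges. *Unc13b* has 22746 annotated exon bases and a principal transcript of 6354 bases. *Cadps* held 85.2% ± 1.97 of the CAPS FPKM, at 5.72 ± 1.42 FPKM against 0.975 ± 0.177 FPKM for *Cadps2*, and the ratio of 5.87 between the means was nearly the same in wild-type islets at 5.86.

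The member synaptotagmins were led by *Syt13*, whose protein lacks the usual calcium-binding residues, with 68.7% ± 0.352 of their summed FPKM. Its values were 317, 277, 312, 303 and 312 FPKM in PDX1P33T replicates 1 to 5, and its mean ranked 79 among the 19329 gene IDs. *Syt4* (41.3 ± 3.12 FPKM), *Syt7* (37.2 ± 4.10 FPKM) and *Syt5* (36.8 ± 1.86 FPKM) did not separate from each other in FPKM. On the principal length they did, with *Syt7* at 207 ± 22.9, 4.14 times *Syt5*, and *Syt5* 1.21 times *Syt4* at 41.3 ± 3.12, and *Syt13* then held 48.6% ± 0.967 of the sum. *Syt7* is a high-affinity calcium sensor of beta cell granules. *Syt11* followed at 16.9 ± 3.16 FPKM and *Syt9*, a calcium sensor of insulin granules, at 6.05 ± 0.289 FPKM, each below its neighbour in 5 of 5 libraries. *Cplx2* held 99.9% of the member complexin FPKM, since *Cplx1* was at 0.122 ± 0.0789 FPKM from 1 to 13 reads per library.

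Among the granule GTPases *Rab27a* (45.7 ± 3.42 FPKM) took 99.6% ± 0.106 of the Rab27 sum, with *Rab27b* at 0.188 ± 0.0362 FPKM. *Rab3d* (41.4 ± 2.34 FPKM) and *Rab3a* (37.8 ± 2.62 FPKM) had overlapping ranges, although *Rab3d* was the higher within each of the 5 PDX1P33T libraries. It was the higher in 3 of 6 wild-type libraries, and on the length of the principal transcript *Rab3a* led 1.21-fold. *Rab3b* followed at 15.1 ± 0.510 FPKM and had the lowest coefficient of variation, 3.38%, of the 33 members with a mean of at least 1 FPKM, for which the median was 11%. *Rab3c* was at 0.433 ± 0.0777 FPKM. Of the Rab effectors *Sytl4* (granuphilin, which docks insulin granules) was at 67.0 ± 14.1 FPKM and *Rph3al* (Noc2, a Rab3 and Rab27 effector) at 28.4 ± 1.88 FPKM. *Sytl4* took 96.9% ± 0.715 of the summed FPKM of the member synaptotagmin-like genes. *Sytl5* (1.93 ± 0.874 FPKM) and *Sytl2* (0.267 ± 0.0516 FPKM) held the rest. Outside the members, *Sytl1* was at 8.16 ± 0.806 FPKM in PDX1P33T islets, above *Sytl5*, and *Sytl3* at 0.498 ± 0.118 FPKM. *Sytl5* was 7.22 times *Sytl2* in FPKM and 1.96 times on the principal length. *Rims3*, a short RIM that lacks the Rab-binding part of the longer ones, held 88.4% ± 0.908 of the member RIM FPKM at 14.3 ± 1.10 FPKM. It was 7.72 times *Rims2* at 1.85 ± 0.24 FPKM and 4.30 times on the principal length. *Exph5* (Slac2-b, a Rab27 effector) was at 0.744 ± 0.277 FPKM.

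The active zone scaffolds, large proteins that organise release sites at synapses, were low on this scale. *Pclo* was at 2.46 ± 0.213 FPKM and above *Bsn* (1.02 ± 0.253 FPKM) in 5 of 5 libraries. *Erc2* (0.635 ± 0.0524 FPKM) and *Erc1* (0.534 ± 0.0915 FPKM) overlapped, and on the length of the principal transcript *Erc1* was level with *Erc2* at a ratio of 1.00. For SNARE disassembly *Napa*, which encodes alpha-SNAP, was at 69.2 ± 4.06 FPKM and *Nsf*, the ATPase, at 8.25 ± 0.641 FPKM. In 11 of the 15 families the leading member was separate from the next in FPKM, its lowest library above the other's highest. It was 14 of 15 without PDX1P33T replicate 2 and 12 of 15 on the principal length.

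**Figure D2:**
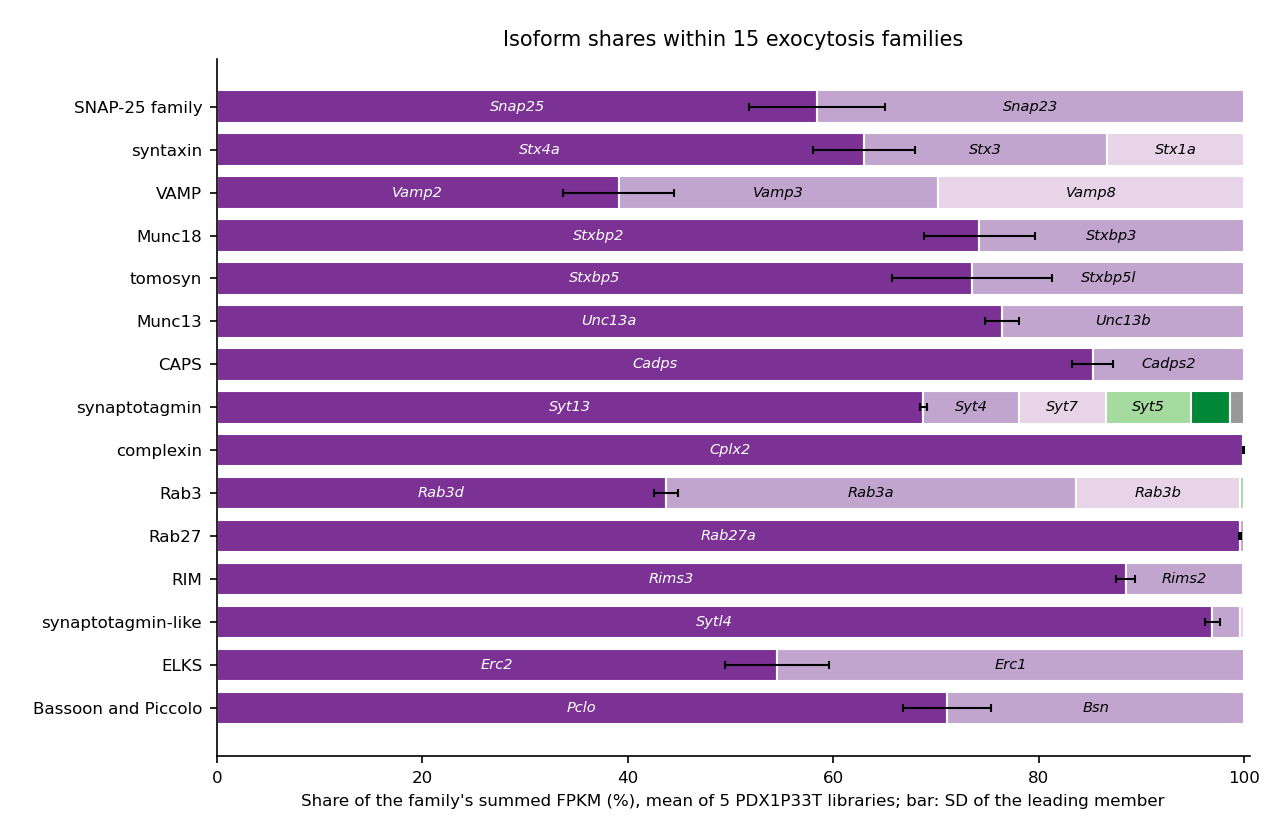
Share of the summed FPKM of each family's members (%, mean of the 5 PDX1P33T libraries) taken by each, with the SD of the leading member as a black bar. The unlabelled segments of the synaptotagmin bar are *Syt11* and *Syt9*. Shares of the leading member run from 39.1% for *Vamp2* to 99.9% for *Cplx2*.

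The genotype comparison asked whether homozygous PDX1P33T islets express this machinery at another level than wild-type islets. None of the 23 members compared passed the call, an adjusted p of at most 0.05 in limma (Benjamini-Hochberg) with a fold change of at least 1.5, and 0.118% of the 5071 genes compared passed it. At an unadjusted p under 0.05 in limma there were 9 members, against 32.2% of all genes compared. Of the 8 members whose rows came from reads 8 were among them, against 87.1% of all genes placed that way. Of the 15 placed by length it was 1, against 5.18%. The 8 of 8 and the 1 of 15 are near the background of their own kind of row and say nothing particular of the members. The groups did not overlap for 3 members, all placed by reads, where the background was 12.7% of genes placed by reads, 0.559% of genes placed by length and 4.58% of all genes. By the exact permutation test, adjusted over the 5071 genes compared, no gene had an adjusted p under 0.0946. The smallest p that this test can give, 0.0043, is shared by every gene whose groups did not overlap. The value 0.0946 follows from that floor and the number of such genes, so it does not show equal levels. The limma adjustment ran over 19329 gene IDs instead. The median log2 fold change (PDX1P33T over wild-type, on FPKM + 0.1) was -0.06 over the 23 members and -0.06 over the 5071 genes, with 11 members above 0 and 12 below. Within each kind of row the medians differed. For rows by reads it was 0.40 over the 8 members against -0.32 over all genes. For rows by length it was -0.08 over the 15 members against 0.04 over all genes. These differences were not tested.

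**Figure D3:**
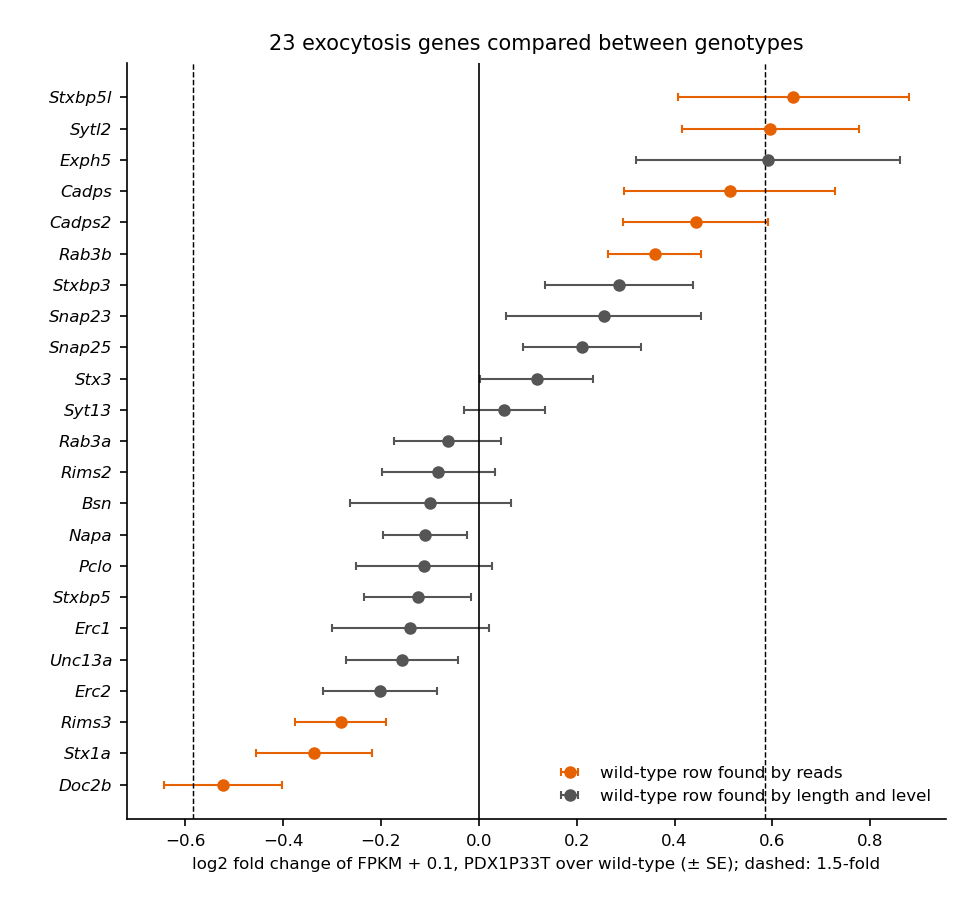
log2 fold change of FPKM + 0.1 (PDX1P33T over wild-type, ± SE from limma) of the 23 members compared, coloured by how the wild-type row was found; dashed lines mark 1.5-fold. Values run from -0.52 for *Doc2b* to 0.64 for *Stxbp5l*, and the members found by reads hold both ends.

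*Doc2b*, a soluble calcium sensor that promotes SNARE-driven fusion in beta cells, had the smallest limma p. Its FPKM were 0.590, 0.809, 0.689, 0.668, 0.679 and 0.809 in wild-type replicates 1 to 6 and 0.375, 0.531, 0.462, 0.466 and 0.473 in PDX1P33T replicates 1 to 5. All PDX1P33T libraries lay below all wild-type libraries. The log2 fold change was -0.52 (SE 0.12), with an adjusted p of 0.460 in limma and an exact two-sided permutation p of 0.0043, the smallest that 462 divisions of 11 libraries can give. The gene rests on 44 to 76 reads per PDX1P33T library and 58 to 108 per wild-type library. It lies on chromosome 11 from 75768966 to 75796049 on the minus strand (GRCm38, GENCODE vM21), 34950 bases from *Rph3al*, and an annotated transcript of the other strand shares 241 of its exon bases. Without PDX1P33T replicate 2 its log2 fold change was -0.57, and without wild-type replicate 3 it was -0.53.

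*Rab3b*, a Rab3 GTPase of secretory vesicles, was at 14.0, 12.6, 10.5, 12.1, 12.0 and 9.66 FPKM in wild-type and at 15.3, 14.6, 14.5, 15.4 and 15.6 FPKM in PDX1P33T libraries. The PDX1P33T libraries were close together and each lay above the highest wild-type one, replicate 1. The log2 fold change was 0.36 (SE 0.10, adjusted p = 0.492 in limma), with an exact permutation p of 0.0043. The fold change stayed under 1.5, and it was 0.37 on the log2 scale without PDX1P33T replicate 2 and 0.33 without wild-type replicate 3. *Rab3b* spans 108879063 to 108943324 on the plus strand of chromosome 4, and an annotated antisense gene shares 317 of its exon bases.

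*Rims3* was at 19.5, 19.8, 15.23, 16.6, 17.7 and 15.9 FPKM in wild-type and at 14.8, 12.4, 15.21, 14.4 and 14.7 FPKM in PDX1P33T libraries. The groups did not overlap, but the lowest wild-type library and the highest PDX1P33T library, replicate 3 of each, nearly coincided. The log2 fold change was -0.28 (SE 0.09, adjusted p = 0.492 in limma), with an exact permutation p of 0.0043. It was -0.23 without PDX1P33T replicate 2, the lowest library, and -0.32 without wild-type replicate 3. The gene, from 120854816 to 120896579 on the plus strand of chromosome 4, was above *Rims2* in 5 of 5 PDX1P33T and 6 of 6 wild-type libraries.

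PDX1 is a homeodomain protein, and homeodomains bind DNA around a TAAT core. The promoters of *Rab3b* and *Rims3*, 2 of the 3 members whose groups did not overlap, are therefore shown from 250 bases before to 50 bases after the annotated start, read from RefSeq on GRCm38.p6. For *Doc2b*, the other such member, no promoter sequence was at hand, so its promoter was not read. Capitals mark TAAT or, for the other strand, ATTA; overlapping matches count for both.
*Rab3b* (chr4:108878820-108879119, plus strand): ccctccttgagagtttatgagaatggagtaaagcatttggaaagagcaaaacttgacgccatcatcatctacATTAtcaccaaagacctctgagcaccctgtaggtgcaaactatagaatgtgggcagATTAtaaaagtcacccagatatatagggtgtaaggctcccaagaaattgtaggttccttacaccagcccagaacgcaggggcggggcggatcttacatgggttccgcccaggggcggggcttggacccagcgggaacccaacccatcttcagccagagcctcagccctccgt
*Rims3* (chr4:120854549-120854848, plus strand): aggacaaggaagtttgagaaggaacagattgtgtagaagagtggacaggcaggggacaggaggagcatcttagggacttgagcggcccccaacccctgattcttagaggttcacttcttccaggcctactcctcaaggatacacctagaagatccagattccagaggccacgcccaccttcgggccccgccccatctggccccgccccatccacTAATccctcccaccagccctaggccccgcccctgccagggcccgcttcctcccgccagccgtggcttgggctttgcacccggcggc
The *Rab3b* window held ATTA at 2 places and no TAAT, and the *Rims3* window held TAAT at 1 place. Such a match was found in 58.0% of all 32851 promoters of this length and in 14 of the 36 promoters of 34 members (38.9%). A match is a description of the letters and was not tested for binding.

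*Sytl2* (Slp2-a), a Rab27 effector that tethers granules, was at 0.0954, 0.0746, 0.148, 0.182, 0.229 and 0.148 FPKM in wild-type and at 0.288, 0.305, 0.253, 0.306 and 0.183 FPKM in PDX1P33T libraries. PDX1P33T replicate 5 was within the wild-type range and the other 4 above it. The log2 fold change was 0.60 (SE 0.18, adjusted p = 0.492 in limma, exact permutation p = 0.0087). It was 0.56 without PDX1P33T replicate 2 and 0.60 without wild-type replicate 3. It rests on 23 to 114 reads per library, and at this level the pseudocount of 0.1 compresses it, as the value with a pseudocount of 0.01, 0.89, shows. *Cadps2*, the lesser CAPS gene, was at 0.852, 0.581, 0.558, 0.606, 0.712 and 0.835 FPKM in wild-type and at 0.805, 1.15, 1.18, 0.887 and 0.851 FPKM in PDX1P33T libraries. The groups overlapped through wild-type replicates 1 and 6 and PDX1P33T replicates 1 and 5. The log2 fold change was 0.44 (SE 0.15, adjusted p = 0.492 in limma, exact permutation p = 0.022). It was 0.38 without PDX1P33T replicate 2 and 0.39 without wild-type replicate 3.

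*Cadps*, the leading CAPS gene, was at 6.23, 3.62, 2.39, 4.6, 3.8 and 3.65 FPKM in wild-type and at 4.35, 7.90, 5.87, 4.57 and 5.91 FPKM in PDX1P33T libraries. Its log2 fold change was 0.51 (SE 0.22, unadjusted p = 0.034 and adjusted p = 0.523 in limma). Wild-type replicate 1 was above 4 of the 5 PDX1P33T libraries. The log2 fold change was 0.39 without PDX1P33T replicate 2 and 0.38 without wild-type replicate 3, with unadjusted limma p-values of 0.098 and 0.064. The tomosyn *Stxbp5l* was at 0.231 to 0.619 FPKM in wild-type and 0.477 to 0.994 FPKM in PDX1P33T libraries. Its log2 fold change of 0.64 (SE 0.24, adjusted p = 0.494 in limma) was 0.54 without PDX1P33T replicate 2 and 0.50 without wild-type replicate 3. *Stx1a* was at 3.77, 3.70, 5.42, 4.23, 4.38 and 4.22 FPKM in wild-type and at 3.84, 3.18, 3.28, 3.82 and 2.74 FPKM in PDX1P33T libraries. Wild-type replicate 3 was the highest, and the groups overlapped at 3.70 to 3.84 FPKM. Its log2 fold change was -0.34 (SE 0.12, adjusted p = 0.494 in limma), -0.27 without that library and -0.32 without PDX1P33T replicate 2. *Exph5*, the only member placed by length at an unadjusted limma p under 0.05, was at 0.241 to 0.897 FPKM in wild-type and 0.453 to 1.17 FPKM in PDX1P33T libraries (log2 fold change 0.59, SE 0.27, adjusted p = 0.581 in limma). PDX1P33T replicate 2 was its highest library, and without it the log2 fold change was 0.43 with an unadjusted limma p of 0.137. Without wild-type replicate 3 the log2 fold change was 0.54 with an unadjusted limma p of 0.078.

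**Figure D4:**
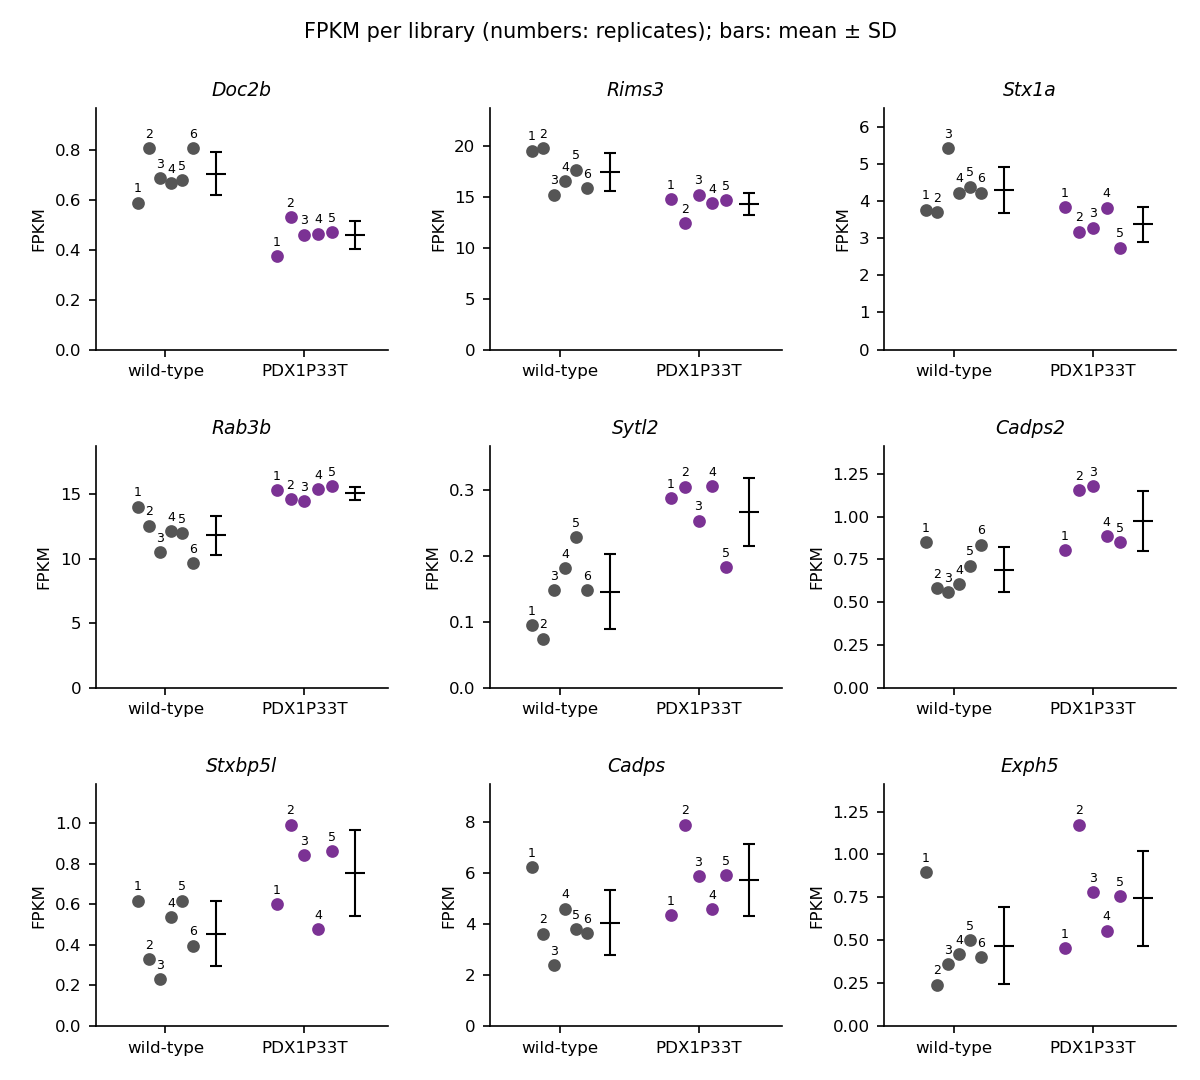
FPKM of the 9 members with an unadjusted limma p under 0.05 in each library, numbered by replicate, with mean ± SD of the 6 wild-type and 5 PDX1P33T libraries beside them; each axis starts at 0. The groups are apart for *Doc2b*, *Rims3* and *Rab3b* and overlap for the other 6.

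The other 14 members compared were all placed by length and so selected towards larger p-values. With all libraries their unadjusted limma p-values were at least 0.083. The target SNAREs *Snap25* (9.79 ± 1.49 FPKM, SD, n = 6, in wild-type against 11.3 ± 1.24, n = 5) and *Stx3* (5.39 ± 0.737 against 5.86 ± 0.870) had log2 fold changes of 0.21 and 0.12, each with an SE of 0.12. *Snap25* was at 0.12 without wild-type replicate 3, and *Stx3* at 0.03 without PDX1P33T replicate 2 and 0.08 without wild-type replicate 3. *Snap23* had 0.26 (SE 0.20), which was 0.03 without PDX1P33T replicate 2. *Stxbp3* had 0.29 (SE 0.15), which was 0.16 without that library. *Stxbp5* and *Unc13a* had -0.13 and -0.16, each with an SE of 0.11, and -0.03 and -0.08 without PDX1P33T replicate 2. *Syt13*, the highest of all members, was at 293 ± 12.0 FPKM in wild-type against 304 ± 16.1, a log2 fold change of 0.05 (SE 0.08), which was 0.09 without PDX1P33T replicate 2 and 0.03 without wild-type replicate 3. *Napa* was at 74.9 ± 6.80 FPKM against 69.2 ± 4.06 (log2 fold change -0.11, SE 0.09). *Rab3a* and *Rims2* had -0.06 (SE 0.11) and -0.08 (SE 0.12), and -0.03 and -0.01 without PDX1P33T replicate 2. *Rab3a* turned to 0.02 without wild-type replicate 2. The scaffolds *Erc2*, *Erc1*, *Pclo* and *Bsn* all had negative log2 fold changes, of -0.20, -0.14, -0.11 and -0.10, none past its test with all libraries. Without PDX1P33T replicate 2 *Bsn* turned to 0.05, *Erc1* was -0.04 and *Pclo* was -0.06. Without wild-type replicate 3 *Erc1* was -0.08. *Pclo* was -0.23 (SE 0.08) without that library, with an unadjusted limma p of 0.018 and an adjusted p of 0.700. For the genes placed by the narrower length rule, wild-type means were 44.6 ± 4.25 FPKM for *Vamp2*, 38.5 ± 5.43 for *Rab3d*, 20.1 ± 5.01 for *Syt11* and 1.24 ± 0.437 for *Sytl5*, against 43.4, 41.4, 16.9 and 1.93 FPKM in PDX1P33T islets, with overlapping groups in each.

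Markers of other cells are given beside these values. The 6 Schwann and neural genes placed, of 12, summed to 4.80 to 8.95 FPKM in wild-type and 3.97 to 4.97 FPKM in PDX1P33T libraries. Among them *Ngfr* did not overlap between the groups, at 0.772 to 3.66 FPKM against 0.293 to 0.695 FPKM (log2 fold change -1.45, adjusted p = 0.460 in limma). The 6 immune genes placed, of 10, summed to 120 to 430 FPKM in wild-type and 89.0 to 139 FPKM in PDX1P33T libraries, and the 6 endothelial genes, of 8, to 44.2 to 218 and 35.4 to 77.0 FPKM. The 5 beta cell markers placed, of 11, summed to 200621 to 281531 and 236326 to 334242 FPKM. These sums were mostly *Ins1*, *Ins2* and *Iapp*, with log2 fold changes of 0.13, 0.17 and 0.50. *G6pc2* had 0.21. *Mafa* went the other way, with means of 314 FPKM in wild-type and 259 FPKM in PDX1P33T islets (log2 fold change -0.27). By limma none of the genes of these lists was called, and 3 Schwann and neural, 3 immune, 0 endothelial and 0 beta cell genes had an unadjusted p under 0.05. Their part in the members' differences was not tested.

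PDX1P33T replicate 2 shaped the spread of the members within that genotype. It was the highest of the 5 libraries for 13 members and the lowest for 23 (51.1%), where over 17446 gene IDs it was the highest for 36.3% and the lowest for 33.5%. Above the other 4 lay, among others, *Sytl5* (2.31 times their median), *Snap23* (2.17 times), *Exph5* (1.79 times), *Vamp3* (1.59 times), *Cadps* and *Stxbp3* (1.51 times each), *Vamp8* (1.4 times), *Sytl4* (1.37 times) and *Stx3* (1.36 times). Below them lay, among others, *Bsn* (0.555 times), *Syt11* (0.632 times), *Erc1* (0.667 times), *Stxbp5* (0.714 times), *Unc13a* and *Rims2* (0.748 times each), *Cplx2* (0.752 times) and *Syt7* (0.786 times). The scarce *Cplx1* and *Rims1* were at 1 read each in it. In the SNAP-25 family *Snap23* was at 14.9 FPKM in this library against *Snap25* at 13.1 FPKM, while in the other 4 it was at 5.94 to 7.73 FPKM against 10.1 to 11.7 FPKM. The same library held the most acinar and the least endothelial RNA by the marker sums given above. Its 11 beta cell markers, mostly *Ins1*, *Ins2* and *Iapp* by FPKM, summed to 335540 FPKM against 237533 to 291871 in the other 4. Its 10 immune genes summed to 130 FPKM against 161 to 174. The part of these markers in its member levels was not tested.

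**Figure D5:**
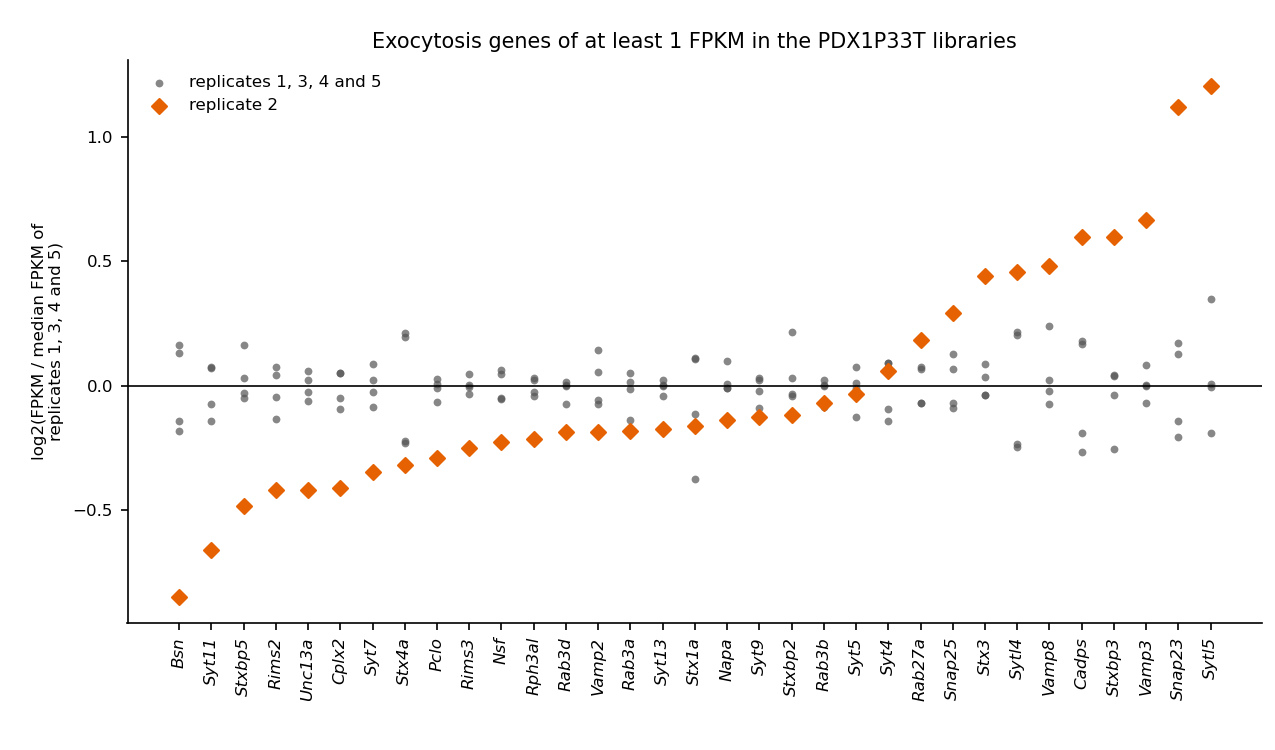
log2 ratio of each PDX1P33T library to the median FPKM of replicates 1, 3, 4 and 5, for the 33 members with a mean of at least 1 FPKM, ordered by replicate 2 (diamonds). Replicate 2 runs from 0.555 times for *Bsn* to 2.31 times for *Sytl5*, mostly outside the other 4 libraries.

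Other genes of the pathway were read from a list of 75 (further SNAREs, synaptotagmins, the exocyst, which tethers vesicles to the membrane, liprins, synapsins and vesicle proteins), of which 69 were in the table and 26 could be compared. By limma none was called, none had groups apart, and 6 had an unadjusted p under 0.05, where 32.2% of all genes compared did. *Rab11a*, a recycling endosome GTPase, had the higher mean in PDX1P33T islets, at 26.8 to 36.6 FPKM in wild-type against 33.2 to 49.2 FPKM. The other 5 had the lower mean there, namely the syntaxin *Stx2*, the synaptotagmins *Syt2* and *Syt3*, the Rab27 effector *Sytl1* and the exocyst subunit *Exoc6b*, with adjusted limma p-values from 0.494 to 0.523. Of these 6, *Rab11a*, *Stx2*, *Syt2* and *Syt3* were placed by reads, where 87.1% of genes passed the same limit, and the other 2 by length. The 7 exocyst genes compared had log2 fold changes from -0.24 to 0.16. Of the classical neuronal calcium sensors, *Syt1* was at 0.583 FPKM in wild-type and 0.547 FPKM in PDX1P33T islets and *Syt2* at 1.21 and 0.936 FPKM, below *Syt7* on this scale. The median log2 fold change of the 26 was -0.10.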

How the data were processed

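RNA from whole islets was measured in 6 wild-type and 5 PDX1P33T libraries, grouped by the genotype in the labels. Per the submitters' processing notes and the methods, the authors filtered reads with fastp 0.23.1, aligned them with HISAT2 2.0.5 and counted them with featureCounts 1.5.0-p3 on GRCm39 (mm39), and they deposited FPKM per gene and library, after dropping genes measured in under 80% of the replicates of each condition. The authors' notes name DESeq2 1.20.0 for their comparison. The methods name an unstranded and a stranded kit without saying which was used. Reads on the exon bases that 12 members share with another annotated gene (GENCODE vM21) therefore cannot be told from that gene's. The shared bases ran from 29 for *Rab3a*, of length 2225, to 1919 for *Erc1*, of length 16271. The deposited summary table holds FPKM only, and 0 columns of values could not be tied to a library.

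Wild-type rows were identified in 2 ways. Reads in the first 1749 rows of the supplementary gene list gave 1712 genes. Gene length, the smallest value at which all FPKM of a row are whole reads, gave 3398 more, where the group means were within 4-fold, no other row of that length was within 16-fold and each genotype had at least 100 reads. This recovered the length for 98.3% of listed genes, and 403 of 403 genes that both ways could place got the same row. Of the 5110 genes placed, 13 were on their own row as deposited and 39, at 0 in every PDX1P33T library, were left out. The narrower rule, added after the data were seen, used 2-fold and 4-fold limits.

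The 5071 genes were fitted with limma 3.58.1 (R 4.3.3; trend and robust options) on log2(FPKM + 0.1), without covariates and with no filter on low values. The Benjamini-Hochberg adjustment ran over 19329 gene IDs and took unplaced genes as unchanged. Levels on the principal transcript's length are FPKM times the recovered length over that of the APPRIS principal transcript (for *Syt4* and *Cplx2*, whose recovered length is a divisor of the true one, the next multiple), a comparison added after the data were seen. A fold change on the log2(FPKM + 0.1) scale understates that of low genes. An exact permutation test (two-sided, 462 ways to divide the libraries) was added for single members. Python 3.11.15 was used with scipy 1.17.1, pandas 2.3.3, numpy 2.4.6 and, for plots, matplotlib 3.10.9. The scripts were tested on simulated data.

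Libraries held a median of 24979124 (wild-type) and 26887871 (PDX1P33T) counted reads, and a single read on a 1-kb gene stands for 0.0270 to 0.0518 FPKM. Reads cover counting error only. Where libraries of 1 genotype are not separate pools of mice, p-values measure only their spread. Same-numbered libraries of the genotypes did not deviate together, so no pairing was used. Other settings tried were the pseudocount, a filter on low values, the scaling, limma's options, the adjustment, the fold limit, the way rows were placed, a replicate block and leaving out each library.

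Every member is accounted for. Full statistics are given for members called, members whose groups do not overlap and the 5 with the smallest limma p (*Doc2b*, *Rab3b*, *Sytl2*, *Rims3* and *Cadps2*). *Stx1a*, *Stxbp5l*, *Cadps* and *Exph5* were added after their values were seen, as the rest of the members at an unadjusted p under 0.05. Of other lists, genes called or not overlapping are named, and those at an unadjusted p under 0.05 in the list of other exocytosis genes were named after their values were seen. Some genes outside the members are not reported here. The members and lists were chosen with earlier results of these data known. Ensembl IDs were paired with symbols through GENCODE vM21, whose GRCm38 coordinates are the ones printed.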

Additional observations from a re-analysis of the deposited data

Results flagged for a closer look

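Values that stand far from the rest of their group were looked for in 68 groups of libraries (45 members in PDX1P33T and 23 in wild-type), and 7 were found (10.3%), where chance gives about 1 in 20. PDX1P33T replicate 2 held 6 of them. It was the highest library for *Snap23* at 14.9 FPKM (5.94 to 7.73 FPKM in the other 4), *Stx3* at 7.38 FPKM (5.30 to 5.77), *Vamp3* at 49.8 FPKM (29.9 to 33.3), *Stxbp3* at 5.29 FPKM (2.94 to 3.60) and *Sytl5* at 3.44 FPKM (1.31 to 1.90). It was the lowest for *Unc13a* at 2.02 FPKM (2.59 to 2.81). Wild-type replicate 3 was the lowest for *Pclo*, at 1.72 FPKM, with the other 5 between 2.75 and 3.02 FPKM. It was also the lowest of the wild-type libraries for 10 of the 23 members compared (43.5%), against 31.4% of all genes placed. Both libraries also differ from their group in the acinar, endothelial, immune, beta, delta or PP cell marker sums, whose part in these values was not tested.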

How the results depend on the processing

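No member was called by limma under any setting run. The members at an unadjusted limma p under 0.05, 9 as reported, were 4 with a mean of at least 1 FPKM, 5 with a replicate block by title number and 5 with a replicate block by library number, and 6 to 10 when each library was left out. With libraries left out the lowest, 6, was without PDX1P33T replicate 2, which dropped *Cadps*, *Exph5* and *Stxbp5l*. *Stxbp3* was gained without PDX1P33T replicate 4 or wild-type replicate 1 (unadjusted limma p of 0.036 and 0.033). *Pclo* was gained without wild-type replicate 3 (unadjusted limma p of 0.018). The filter at 1 FPKM took *Doc2b*, *Cadps2*, *Stxbp5l*, *Sytl2* and *Exph5* out of the fit, so they could not be counted there. The genes called among all those placed, 6 as reported, were 3 with a pseudocount of 0.01, 3 with a mean of at least 1 FPKM, 1 and 3 with the replicate block by title and by library number, 13 when adjusted over placed genes only, 2 with the fold limit set at 1.5 on the log2 scale, 3 with only genes placed by reads, 3 with the closest libraries averaged (chosen after seeing the data), and 3 to 8 when each library was left out. They were 3 without wild-type replicate 2, 5 or 6 or PDX1P33T replicate 1, 3, 4 or 5. The cause was not tested. The deviations of same-numbered libraries correlated from -0.55 to 0.07 by title and from -0.55 to 0.08 by library number. So few libraries cannot exclude a pairing.

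The log2 fold changes of the 5 members with the smallest p kept their sign under 23 or 24 settings each, from -0.61 to -0.22 for *Doc2b*, 0.30 to 0.41 for *Rab3b*, -0.32 to -0.23 for *Rims3*, 0.15 to 0.89 for *Sytl2* and 0.22 to 0.54 for *Cadps2*, with adjusted limma p-values from 0.121 to 1. Of the 23 members, 2 turned, *Rab3a* to 0.02 without wild-type replicate 2 and *Bsn* to 0.05 without PDX1P33T replicate 2 and to 0.00 with quantile normalization. Families with a separate leading member, 11 of 15 as reported, were 11 to 14 when each library was left out and 12 on the principal transcript's length, where the leading member changed in 3 families. Transcripts of a few reads per library, such as *Cplx1* and *Rims1*, allow no order between libraries.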
